A study of Mus musculus with 18 samples.

Results

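The comparison described here is the passage from 2 to 14 days of age in lenses of mice that carry the onco-Dbl transgene. Its members are 6 of the 18 arrays of the series, the 3 labelled as lenses of 14 day old Dbl mice and the 3 labelled as lenses of 2 day old Dbl mice, and all 12422 probe sets of the array that are not controls were tested. Each array was hybridised with RNA from a pool of 4 to 8 whole lenses, and 3 independent pools were used per group. The other 12 arrays hold wild type (wt) lenses of 2, 14 and 42 days and Dbl lenses of 42 days, and the wt lenses of 2 and 14 days serve as the comparison for normal growth. Dbl lenses come from mice whose oncogene cDNA is driven by the mouse metallothionein promoter, and wt lenses carry no transgene. The promoter is active in many cell types, so the transgene is not restricted to one lens compartment by its construct. The gene Mcf2, from which onco-Dbl derives, has no probe set with a single gene name in the files, so the transgene was not analysed here and the labels could not be checked against it.

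The lens is built from a single layer of epithelial cells and a mass of fiber cells. Epithelial cells divide in a zone in front of the equator, leave the cell cycle at the equator, elongate and fill with crystallins, the soluble proteins that give the lens its refractive power. Dbl is a guanine nucleotide exchange factor, and its oncogenic form, onco-Dbl, transforms cells in culture. When lens epithelial cells turn into fibroblast-like cells they are described as passing through an epithelial to mesenchymal transition (EMT), with loss of junction proteins and deposition of interstitial collagens.

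Signals are given on a linear scale on which each array has a 2% trimmed mean of 500, always in the order of replicates 1, 2 and 3, and a log2 difference is the mean log2 signal at 14 days minus that at 2 days, with its standard error (SE). The median probe set had a mean signal of 224 over the 18 arrays. Before the results, several arrays must be described because they stand apart from their own groups. Over 6565 probe sets with a mean signal above 200, Dbl 2 days replicate 2 correlated with replicate 1 of its group at r = 0.791 and with replicate 3 at 0.597, and its closest array was Dbl 42 days replicate 1 at 0.958. Dbl 2 days replicate 1 was closest to Dbl 42 days replicate 2 (r = 0.951) and Dbl 2 days replicate 3 was closest to wt 2 days replicate 2 (r = 0.924), so none of the 3 arrays of Dbl 2 days had its closest match within its group. The labels were kept as given, and whether any array carries the label of another sample was not tested. Dbl 14 days replicates 2 and 3 correlated at 0.931, and replicate 1 correlated with them at 0.610 and 0.625 and was closest to wt 14 days replicate 1 (r = 0.809). As deposited, the trimmed means were 76.2 for Dbl 2 days replicate 2 and 95.2 for Dbl 14 days replicate 1, against 500.3 in the other 4 Dbl arrays of these ages. The ratio of the 5′ to the 3′ actin control probe sets, a sign of RNA integrity and labelling, was 0.839, 0.779 and 0.605 at 2 days and 0.399, 0.499 and 0.581 at 14 days. It was lower in every Dbl array of 14 days, so it moves with age in the Dbl comparisons below. Its part in the differences was not tested. In wt the ages overlapped, with 0.867, 0.407 and 0.564 at 2 days and 0.433, 0.609 and 0.755 at 14 days. The Gapdh ratio overlapped between the Dbl ages (1.13, 1.23 and 0.881, then 1.04, 1.05 and 0.979). Results are given with all 6 arrays, without Dbl 2 days replicate 2, and, where it matters, without Dbl 14 days replicate 1.

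With all 6 arrays, 0 of 12422 probe sets (0%) passed a Benjamini-Hochberg adjusted p of 0.05 in limma in either direction, and the smallest adjusted p was 0.662. At an unadjusted limma p under 0.05 there were 690 probe sets (5.55%), of which 421 were higher (3.39%) and 269 lower (2.17%) at 14 days. In 711 probe sets (5.72%) all 3 arrays of 14 days lay above all 3 arrays of 2 days, and in 413 (3.32%) all lay below, which is called no overlap here. When the group means also had to differ by 1.5 times or more, 608 (4.89%) were higher and 313 (2.52%) lower. Because 3 arrays stand against 3, an exact two-sided permutation test of one probe set cannot give a p below 0.1. No overlap in either direction is the arrangement with that p, so exchangeable arrays would show it in 0.1 of probe sets. Leaving an array out makes no overlap easier to reach, so such counts are not comparable with those of all 6 arrays. Without Dbl 2 days replicate 2, limma again called 0 probe sets (0%), with a smallest adjusted p of 0.376 and 956 (7.7%) at an unadjusted p under 0.05, while no overlap was found for 1528 probe sets higher (12.3%) and 1169 lower (9.41%) at 14 days. Without Dbl 14 days replicate 1, limma called 1 probe set higher, that of Cst7, and 3 lower, those of Ruvbl1, Hdac3 and Polr1e, and no overlap was found for 2840 probe sets higher (22.9%) and 1176 lower (9.47%). Weighting the arrays by limma's arrayWeights moved the calls to 1478 higher and 855 lower. In replicate order, the weights were 3.55, 0.568 and 0.482 for Dbl 2 days. For Dbl 14 days they were 0.299, 1.81 and 2.29. Dbl 2 days replicate 1 had the largest weight of any array, so the weighted mean of its group rested mostly on it. As given above, the closest match of that array lay outside its group. Every gene below is therefore described by its values, none of which passed the adjusted threshold with all 6 arrays.

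The genes named first were chosen for the smallest p among those without overlap between the ages, so that the lack of overlap is a description of them and not a result. Sptan1, the gene of non-erythroid alpha spectrin, a membrane skeleton protein of lens fibers, had signals of 2161, 2192 and 2072 at 2 days and 7584, 3720.2 and 6365 at 14 days. The groups did not overlap and the log2 difference was 1.40 ± 0.33 SE. Abca1, the cholesterol exporter of the cell surface, had 181, 189.9 and 203 at 2 days and 889.8, 1184 and 1102 at 14 days. Its 3 arrays of 2 days lay close together and all 3 of 14 days were higher, with a log2 difference of 2.46 ± 0.63 SE. Mmp12, the macrophage metalloelastase, which degrades elastin, had 266, 179 and 181 and then 1795, 1213 and 1153. No array of 14 days reached down to the 2 days range, and the log2 difference was 2.73 ± 0.70 SE. Slc6a6, the taurine transporter, had 1421, 5797 and 2269 and 11903, 10174 and 9842. Dbl 2 days replicate 2 was the highest array of its group for this gene, and the difference was 2.00 ± 0.54 SE with it and 2.56 ± 0.54 SE without it.

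Also among these genes were Atp11a, a phospholipid flippase, with a log2 difference of 1.40 ± 0.37 SE, and Pdgfra, a growth factor receptor of lens epithelium, with 920.3, 1067 and 1446 and 4793, 1967 and 2468. Pdgfra was higher in all 3 arrays of 14 days, most so in replicate 1. Mylk, the myosin light chain kinase, which acts in contraction, had 371, 838 and 709.9 at 2 days and 1402, 1566 and 1552 at 14 days. The lowest of the 14 days arrays still lay above the highest of 2 days, with a log2 difference of 1.32 ± 0.39 SE. For the unconventional myosin Myo6, 3 probe sets were present, all with a higher mean at 14 days, and the one with the smallest p gave 1.76 ± 0.52 SE. The adjusted p in limma was 0.883 for each of the 15 higher and 15 lower genes with the smallest p.

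**Figure D1:**
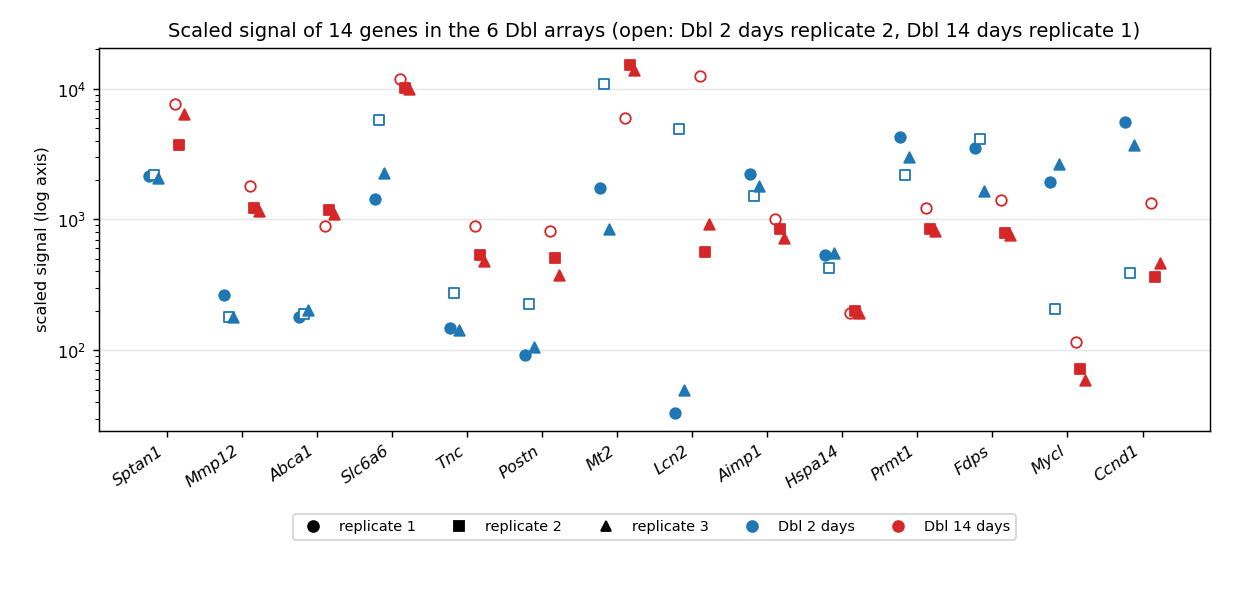
Scaled signal on a log axis of 14 genes in the 3 Dbl arrays of 2 days (blue) and the 3 of 14 days (red), 1 point per array, with the symbol giving the replicate. Open symbols mark Dbl 2 days replicate 2 and Dbl 14 days replicate 1. In Mmp12, Abca1, Aimp1 and Hspa14 the ages are apart in every array, while in Mt2, Lcn2 and Ccnd1 the open blue square (Dbl 2 days replicate 2) lies within the range of the red points.

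The genes lower at 14 days were named by the same rule. Aimp1, a scaffold protein of the aminoacyl-tRNA synthetase complex, had 2223, 1508 and 1800.0 at 2 days and 1009, 849 and 715 at 14 days. There was no overlap, and the log2 difference was -1.10 ± 0.26 SE. Hspa14, a ribosome-associated member of the Hsp70 chaperones, had 538, 422 and 554 and 194, 199 and 194. The 14 days arrays were almost identical and below every array of 2 days, with a difference of -1.36 ± 0.36 SE. Prmt1, the main arginine methyltransferase, had 4288, 2166 and 2982 and 1215, 845 and 817. All 3 arrays of 14 days were lower (-1.68 ± 0.46 SE). Cct5, a subunit of the chaperonin that folds actin and tubulin, differed by -1.42 ± 0.41 SE, and Lsm7, a component of the complexes of RNA splicing and decay, by -1.48 ± 0.41 SE. Fdps, a synthase of the cholesterol pathway, had 3505, 4153 and 1645 and 1418, 780.3 and 761. Its 2 days range was wide, yet the ages did not overlap (-1.61 ± 0.50 SE). Hes5, a transcriptional repressor induced by Notch, differed by -2.84 ± 0.89 SE on one probe set and by 0.40 on another, so its direction is uncertain. The protein folding list had 4 of 43 genes higher and 0 lower without overlap, beside 5.72% and 3.32% of all probe sets, with a median of -0.24.

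Cell cycle genes had lower signals at 14 days than at 2 days, by a margin that depended on which arrays of 2 days were used. Of the list, 55 genes of DNA replication, mitosis and their control were measured, and their median log2 difference was -1.28 with all 6 arrays, against 0.12 over all probe sets. Of these genes, 0 passed the adjusted test, 5 were lower at 14 days without overlap (Bub3, Kif20a, Rfc4, Stmn1 and E2f1) and 0 higher, beside 3.32% and 5.72% of all probe sets. Second probe sets of Bub3 and Stmn1 had the opposite sign. Without Dbl 2 days replicate 2 the median was -2.20 and 44 of 55 were lower without overlap, beside 9.41% of all probe sets. In 50 of the 55 genes that array was nearer on the log2 scale to the mean of the 14 days arrays than to the mean of Dbl 2 days replicates 1 and 3, and over all probe sets this was so for 53.6%. The summed signal of the 55 genes was 73309, 22215 and 115080 in the arrays of 2 days and 23775, 25449 and 24365 in those of 14 days. Only Dbl 2 days replicates 1 and 3 were above the 14 days range, and Dbl 2 days replicate 2 was just below it.

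**Figure D2:**
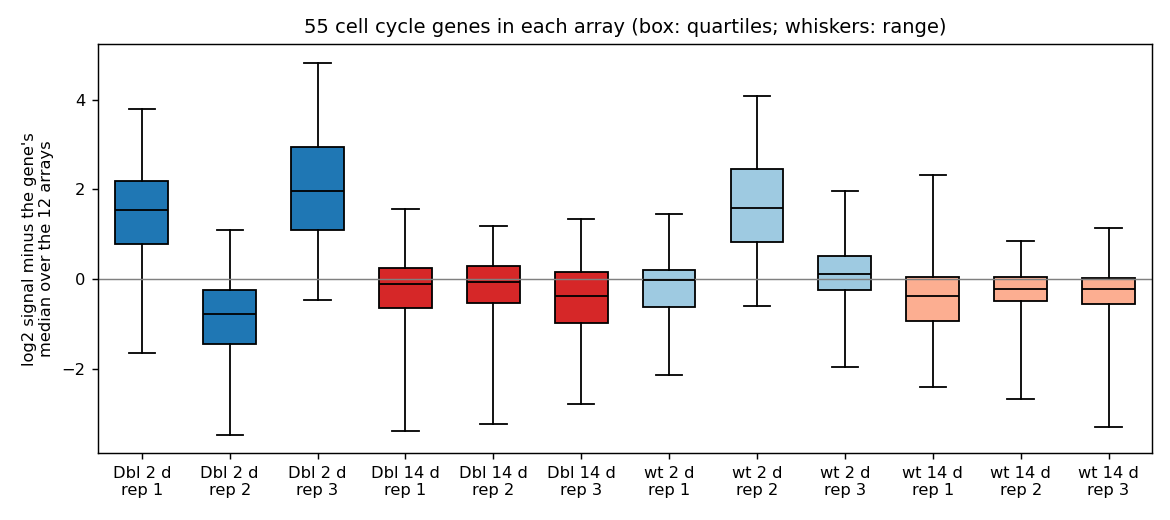
Log2 signal of 55 cell cycle genes, each minus its own median over 12 arrays, in the Dbl and wt arrays of 2 and 14 days. Boxes give the quartiles and whiskers the range over genes. Dbl 2 days replicates 1 and 3 and wt 2 days replicate 2 lie high, and the other 9 arrays lie near or below 0.

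Ccnd1, the cyclin that drives cells out of the first gap phase, had 5509.6, 386 and 3702 at 2 days and 1339, 364 and 466 at 14 days. Dbl 2 days replicate 2 was as low as the lowest arrays of 14 days, and the log2 difference was -1.71 ± 0.86 SE with it and -2.89 ± 0.74 SE without it. Aurkb, the kinase of the chromosomal passenger complex, had 624, 49.8 and 925 and 58.1, 61.3 and 51.8. Again 2 arrays of 2 days stood above the other 4. Smc2, a subunit of condensin, differed by -2.16 ± 0.91 SE with all arrays and by -3.47 ± 0.75 SE without Dbl 2 days replicate 2. Kif20a, a kinesin of cytokinesis, had 725, 198 and 1657 and 143, 42.3 and 82.5, and this gene was lower in all 3 arrays of 14 days. E2f1, the transcription factor that opens S phase, had 285, 126 and 303 and 126, 48.8 and 74.5, where the highest array of 14 days and the lowest of 2 days were almost equal. Some transcription factors outside the cell cycle list had a like order of arrays. Mycl, a Myc family transcription factor, had 1947, 207 and 2634 and 116, 71.6 and 59, and all 3 arrays of 14 days were lower (-3.70 ± 1.04 SE). Myb, a transcription factor of progenitor cells, had 4078, 88.6 and 4551 and 75.2, 127 and 117, and Sox11, a factor of neural and lens progenitors, had 2928, 192 and 11611 and 132, 264 and 278. For Myb and Sox11, Dbl 2 days replicate 2 lay within or near the 14 days range. High cell cycle signal was also present in wt replicate 2 of 2 days, where the summed signal of the list over replicates was 20085, 81003 and 23105 in the wt arrays of 2 days and 17242, 21255 and 20947 in those of 14 days. In wt, 13 of the 55 genes were lower at 14 days without overlap and 0 higher, beside 5.47% and 2.68% of all probe sets. The erythroid list, whose globins mark red cells, was highest in Dbl 2 days replicate 3 and wt 2 days replicate 2, with summed signals of 17362, 22404 and 45137 in Dbl 2 days, 12370, 22579 and 21597 in Dbl 14 days and 7059, 38033 and 8080 in wt 2 days. For the erythroid list, unlike the cell cycle list, Dbl 2 days replicate 1 was not high. The part of red cell RNA in the cell cycle difference was not tested.

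Promoters of many genes expressed in mitosis carry a CCAAT box, bound by NF-Y, and a CHR element, and the promoters of 2 genes of the list are shown for these motifs. Each window is the 250 bases before the RefSeq start on GRCm38.p6, 5′ to 3′ on the gene's strand, with CCAAT (or its reverse ATTGG) and TTTGAA (or its reverse TTCAAA) in capitals. Cdc20, the activator of the anaphase promoting complex, lies at chr4:118437344-118437593 on the minus strand and Ccnb2, a mitotic cyclin, at chr9:70421555-70421804 on the minus strand.
Cdc20: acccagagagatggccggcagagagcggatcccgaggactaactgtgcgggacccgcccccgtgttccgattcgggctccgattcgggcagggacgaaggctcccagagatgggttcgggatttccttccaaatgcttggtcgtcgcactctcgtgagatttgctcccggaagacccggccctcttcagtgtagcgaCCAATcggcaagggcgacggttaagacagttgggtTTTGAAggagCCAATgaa
Ccnb2: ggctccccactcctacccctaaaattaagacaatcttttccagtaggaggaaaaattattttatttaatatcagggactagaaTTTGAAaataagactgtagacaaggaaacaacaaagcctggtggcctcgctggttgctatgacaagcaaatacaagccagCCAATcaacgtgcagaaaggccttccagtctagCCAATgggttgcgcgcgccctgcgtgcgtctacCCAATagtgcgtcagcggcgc
CCAAT was found in 33 of the 43 cell cycle genes with a promoter window (76.7%), beside 33.8% of all 32851 windows, and both motifs together in 13 (30.2%) beside 5.55% of all windows. A gene was counted when any of its windows held the motif, so a gene with several starts had several openings. The background counts single windows, so the 2 kinds of share are in unlike units and their gap is too large. These are descriptions of letters, counted on both strands, and a match of one motif may overlap one of the other. Cdc20 had 2198, 333 and 3077 and 419, 374 and 283, and Ccnb2 had 3380.2, 236 and 4478 and 733, 578 and 509. In both genes the other arrays of 2 days were the highest, while Dbl 2 days replicate 2 was the lowest of all 6 for Ccnb2 and lay within the 14 days range for Cdc20.

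Metallothioneins, small proteins that bind zinc and copper, are of interest because the transgene uses a metallothionein promoter. The windows of the 2 endogenous genes are shown on the plus strand of chromosome 8, at chr8:94178839-94179088 for Mt1 and chr8:94172368-94172617 for Mt2, with the core of the metal response element, TGCACNC or TGCGCNC on either strand, in capitals.
Mt1: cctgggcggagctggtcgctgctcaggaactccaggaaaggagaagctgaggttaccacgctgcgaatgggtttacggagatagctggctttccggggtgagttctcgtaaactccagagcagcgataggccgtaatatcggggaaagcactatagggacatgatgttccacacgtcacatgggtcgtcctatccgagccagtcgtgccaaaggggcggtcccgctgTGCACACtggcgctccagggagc
Mt2: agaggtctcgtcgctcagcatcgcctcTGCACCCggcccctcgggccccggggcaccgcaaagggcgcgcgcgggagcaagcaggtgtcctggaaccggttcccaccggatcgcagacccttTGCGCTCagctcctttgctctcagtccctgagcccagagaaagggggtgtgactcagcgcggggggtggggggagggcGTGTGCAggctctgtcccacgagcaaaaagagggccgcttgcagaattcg
The core occurred 1 time in the Mt1 window and 3 times in that of Mt2, and at least 1 time in 21.4% of all windows. Elements outside these windows, which end at the RefSeq start, were not counted, so these are not counts for the whole promoters. Mt1 had signals of 1102, 8265 and 300.4 at 2 days and 3236, 2500.2 and 2423 at 14 days. Dbl 2 days replicate 2 was the highest of the 6 arrays and the other 2 arrays of 2 days were the lowest, so the log2 difference was 0.95 ± 0.94 SE with it and 2.23 ± 0.81 SE without it. Mt2 had 1747, 10824 and 852 and 5932, 15086 and 13822. Here Dbl 2 days replicate 2 lay within the 14 days range, and the difference was 2.09 ± 0.84 SE with all arrays and 3.14 ± 0.77 SE without it. As the 2 genes are close paralogs, their probe sets may share some signal.

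Interstitial matrix genes, which a fibroblast secretes, had mostly higher signals at 14 days. Of 32 measured, 10 were higher and 0 lower without overlap with all 6 arrays, beside 5.72% and 3.32% of all probe sets, and 15 and 1 without Dbl 2 days replicate 2, beside 12.3% and 9.41%. The median log2 difference was 0.78, with -0.02 for the same genes between the wt ages. Tnc, tenascin C, a matrix protein of remodelling tissue, had 148, 273 and 143 at 2 days and 887, 532 and 483 at 14 days. No array overlapped (1.77 ± 0.58 SE). Postn, periostin, which links collagen to other matrix proteins, had 91.5, 226 and 106 and 814, 505 and 376. Its 14 days arrays were all higher (2.05 ± 0.68 SE). Col1a1, a chain of collagen I, had 337, 492 and 304 and 1024, 687 and 906, with the lowest array of 14 days above the highest of 2 days. Col6a3, a chain of collagen VI, had 369, 423 and 322 and 2141, 670.5 and 627, where replicate 1 of 14 days was several times the other 2. The corneal keratan sulfate proteoglycan Kera had low signals of 29.2, 7.03 and 7.37 and 47, 157 and 114, near or below the 40th percentile of 129.

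Dbl 14 days replicate 1 carried far more matrix signal than its fellows, so the list was also read without it. The summed signal of the 32 genes was 15368, 13483 and 13143 at 2 days and 43951, 15876 and 16944 at 14 days. The 14 days arrays were all above the 2 days arrays, but replicates 2 and 3 only slightly. Without that array the median of the list was 0.62 against 0.27 over all probe sets, and 15 genes were higher without overlap, beside 22.9% of all probe sets. Krt19, a keratin of simple and surface epithelia, had 170.2, 299.7 and 7.06 and 2833, 16.5 and 12.8, and Tgfbi, a matrix protein induced by TGF-beta, had 214, 264 and 112 and 1944, 149 and 199. For both of these genes replicate 1 of 14 days stood alone. Without it the log2 differences were -2.29 for Krt19 and -0.10 for Tgfbi, and a second Tgfbi probe set was lower at 14 days with all 6 arrays. The cause of its matrix signal was not tested.

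Basement membrane genes, which form the capsule around the lens, had a median of 0.66, and 4 of 23 were higher without overlap (Col4a3, Lama2, Lama3 and Lamb1), beside 5.72% of all probe sets. Without Dbl 14 days replicate 1 the median was 0.19, below the 0.27 of all probe sets, and 5 of 23 were higher without overlap, beside 22.9%. Lama2, a laminin chain, had 69.6, 29.4 and 108 and 295, 154 and 232 with no overlap (1.86 ± 0.65 SE). Among 27 matrix proteases and inhibitors 3 were higher without overlap (Mmp12, Adam9 and Plat) and 0 lower, beside 5.72% and 3.32% of all probe sets. The counts were 7 higher and 2 lower when Dbl 14 days replicate 1 was left out, beside 22.9% and 9.47%. Plat, the tissue plasminogen activator, had 1439.6, 1110.1 and 1198 and 4173, 1739 and 2144, all higher at 14 days (1.01 ± 0.38 SE). Timp3, an inhibitor of metalloproteinases bound to matrix, had 802, 1927 and 749.6 and 4702, 2093 and 1670.3. Its log2 difference was 1.28 ± 0.49 SE with all arrays and 1.71 ± 0.50 SE without Dbl 2 days replicate 2, its highest array of 2 days.

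Genes of the EMT lists had mostly higher signals at 14 days. Of 22 EMT and myofibroblast genes, 17 had a log2 difference above 0, with a median of 0.41. Without overlap 3 were higher and 2 lower, beside 5.72% and 3.32% of all probe sets. Without Dbl 14 days replicate 1, 4 were higher and 4 lower without overlap, beside 22.9% and 9.47%. The 18 measured EMT genes that the study itself listed on these samples, which is therefore no independent evidence, had 6 higher without overlap, Cdh1, Col1a1, Col4a3, Lama2, Mmp12 and Plat, and 1 lower, Casp9, beside the same shares as with all 6 arrays, and 16 of the 18 had a log2 difference above 0. The study's list mixes raised and lowered genes, and it gives Cdh1, Col4a3 and Lama2 as down in Dbl against wt lenses. A count of higher genes in that list therefore has no single direction for EMT. Cdh1, E-cadherin, the junction protein of epithelia, had 359, 224 and 389 and 510.2, 658 and 593. All 3 arrays of 14 days were higher (0.89 ± 0.32 SE), and 5 of the 23 epithelial junction and keratin genes were higher without overlap (Cdh1, Cdh3, Cldn4, Dsg2 and Dsc2) against 0 lower, beside 5.72% and 3.32% of all probe sets. The counts were 9 higher and 0 lower when Dbl 14 days replicate 1 was left out, beside 22.9% and 9.47%. Vcl, vinculin, which ties actin to adhesion sites, had 574, 638 and 481 and 2899.7, 989 and 1066, with no overlap (1.37 ± 0.46 SE). Itgav, an integrin chain, was higher on one probe set (2325, 1965 and 2932 and 6983, 5762 and 4406), but of its 3 probe sets the lowest gave a log2 difference of -2.52, so its direction is uncertain. Tgfb2, the TGF-beta isoform of the eye, had 345, 722 and 852 and 2515, 1402 and 1078 and did not overlap (1.39 ± 0.48 SE). Cdh5, the endothelial cadherin, had 99.9, 36.8 and 162 and 145, 234 and 118, and Eng, an endothelial co-receptor of TGF-beta, had 889, 549.6 and 257 and 1508, 406 and 345. For Cdh5 and Eng the ages overlapped, and without Dbl 14 days replicate 1 the difference of Eng was -0.42.

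Macrophage and myeloid genes were higher at 14 days in 7 of 32 without overlap, and 0 were lower, beside 5.72% and 3.32% of all probe sets. Without Dbl 14 days replicate 1, 10 were higher without overlap, beside 22.9%. The list had a median of 0.76, against 0.22 in wt. Beside Mmp12 these were Lyz2, Itgax, Msr1, Laptm5, Ptprc and Mpeg1, and a second Mpeg1 probe set had the opposite sign. Lyz2, lysozyme of myeloid cells, had 515, 446 and 18.6 and 2630.1, 697 and 639.9. Replicate 3 of 2 days was by far the lowest array and replicate 1 of 14 days the highest. C3ar1, the receptor of complement fragment C3a, had 188, 73.5 and 129 and 357, 397 and 389.8, and no array overlapped (1.65 ± 0.46 SE). Itgax, an integrin of dendritic cells and macrophages, had 148, 114 and 179.7 and 634, 295 and 312, with no overlap. Ptprc, the pan-leukocyte marker CD45, was low at both ages, with 3.46, 37.9 and 8.66 and 63.7, 58.8 and 58.7. All of its values were below the 40th percentile. As the lenses were pooled whole, more cells of a type and more RNA per cell cannot be told apart. The summed signal of the list was 13365, 16013 and 6557 at 2 days and 27856, 17305 and 18076 at 14 days, and in wt 44390, 10170 and 32111 and 17422, 30027 and 33480.

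Antigen presentation and interferon response genes had higher signals at 14 days than in Dbl 2 days replicates 1 and 3, but not than in Dbl 2 days replicate 2. With all 6 arrays 2 of 34 were higher without overlap, Tap1 and Irf8, and without that array 22 were, with medians of 0.72 and 1.35. The first count stands beside 5.72% of all probe sets, which is about the same share, and the second beside 12.3%. Without Dbl 14 days replicate 1 the median was 0.36 and 6 were higher without overlap, a smaller share than the 22.9% of all probe sets. Gbp2, a guanylate binding protein induced by interferon, had 24, 280.4 and 7.5 and 305, 45.8 and 212, and Ifitm3, an antiviral membrane protein, had 547, 3163 and 258 and 5945, 1006 and 1567. In both genes Dbl 2 days replicate 2 lay within the 14 days range and the other 2 arrays of 2 days lay below. The acute phase gene Lcn2, lipocalin 2, which binds bacterial iron carriers, had 33, 4939 and 49.8 and 12572, 566 and 917, with a difference of 3.22 ± 1.64 SE with that array and 5.53 ± 1.40 SE without it. Vcam1, a leukocyte adhesion protein, differed by 3.06 ± 1.30 SE and 4.59 ± 1.24 SE. Cxcl12, a chemokine of stromal cells, had 24.3, 381 and 32.7 and 161, 486 and 351, and Ccl8, a monocyte chemokine, had 336, 655 and 139 and 2287, 864 and 498. Of the chemokines and cytokines, 6 of 36 were higher without overlap with all arrays (Ccl3, Ccl4, Ccl6, Cxcl9, Il1a and Csf1), beside 5.72% of all probe sets. The counts were 9 higher and 1 lower when Dbl 14 days replicate 1 was left out, beside 22.9% and 9.47%. Ccl4, Cxcl9 and Il1a were below the 40th percentile in all 6 arrays. Ccl2, another monocyte chemokine, had 1349, 685 and 681 and 5303, 502 and 539, where replicate 1 of 14 days was the highest and the others were below all 3 arrays of 2 days. Its log2 difference without that array was -0.72.

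Ribosomal protein genes had mostly lower signals at 14 days. Of 30 measured, 7 were lower and 0 higher without overlap, beside 3.32% of all probe sets, and the median was -0.53 in Dbl and -0.01 in wt. Scaling each array to its median moved the median of all probe sets from 0.12 to 0.00 and left 4 ribosomal genes lower without overlap. Of all probe sets, 547 were lower without overlap under that scaling, against 413 under the scaling used here. Many ribosomal protein genes have processed copies, so their probe sets are uncertain. Rps3 and Rpl8 were among the 7. Rps3 had 20681, 17474 and 24769 and 16659, 9112 and 10724, and Rpl8 had 18426, 14819 and 15125 and 14216, 6557 and 6877. Of 20 cholesterol synthesis genes 3 were lower without overlap (Idi1, Fdps and Lss) and 1 higher, Insig1, beside 3.32% and 5.72% of all probe sets. Hba-a1, an alpha globin whose near-identical copy may share its probes, had 7085, 6723 and 21677 and 2336, 1711 and 1563, and was lower in all 3 arrays of 14 days (-2.46 ± 0.81 SE).

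Crystallins overlapped between the ages. The 9 measured crystallins had a median of 0.00, and 0 were free of overlap in either direction, while without Dbl 14 days replicate 1 there were 4 that were lower without overlap, beside 9.47%. Their summed signal was 307860, 228210 and 425980 in Dbl lenses of 2 days and 378010, 266340 and 285980 in those of 14 days, and 796420, 586560 and 1102400 and 763460, 793130 and 797940 in wt. Every Dbl array lay below every wt array of the same age. Crybb2, a beta crystallin made late in fibers, had 25484, 28746 and 6175 and 51182, 27735 and 33937, and Crygd, a gamma crystallin, had 47200.0, 31823 and 77644 and 55211, 23563 and 27111. The ages overlapped for both genes. The fiber cell list ranged widely, from 8548 to 31359 at 2 days and from 11449 to 56268 at 14 days, where replicate 1 was high and replicates 2 and 3 were low. Without that array its median was -0.82. Without overlap, 1 of 11 fiber cell genes (Hspb1) and 3 of 18 lens epithelium genes (Cdh1, Npnt and Pdgfra) were higher at 14 days, and of 22 lens transcription factors 1 was higher (Prox1) and 1 lower (E2f1), beside 5.72% and 3.32% of all probe sets. When Dbl 14 days replicate 1 was left out, 1 fiber cell gene was higher and 3 lower. Lens epithelium then had 3 higher and 0 lower, and lens transcription factors 3 higher and 2 lower, beside 22.9% and 9.47%.

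Genes of the retina were measured in these lenses too. The summed signal of 21 photoreceptor genes was 25919, 32193 and 8400 in Dbl 2 days and 10247, 34593 and 39850 in Dbl 14 days. The least was found in Dbl 2 days replicate 3 and Dbl 14 days replicate 1. Sag, the rod arrestin, had 4013, 1575 and 447 and 248, 9088 and 9424, and Gnat1, rod transducin, had 44.7, 70 and 61 and 25.1, 1270.3 and 2070.2. In replicate 1 of 14 days both were far below replicates 2 and 3. Of the 21 genes, 11 were under the 40th percentile in Dbl 14 days replicate 1, and 1 and 2 in replicates 2 and 3. In wt the photoreceptor sums were 11515, 9207 and 8426 at 2 days and 7787, 21282 and 23661 at 14 days. The 25 inner retina and neuron genes summed to 35573, 68259 and 30358 in Dbl 2 days and 9860, 58258 and 64306 in Dbl 14 days. Their median log2 difference was -0.30 with all 6 arrays and 0.30 without Dbl 2 days replicate 2. The part of this signal in other differences was not tested.

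**Figure D3:**
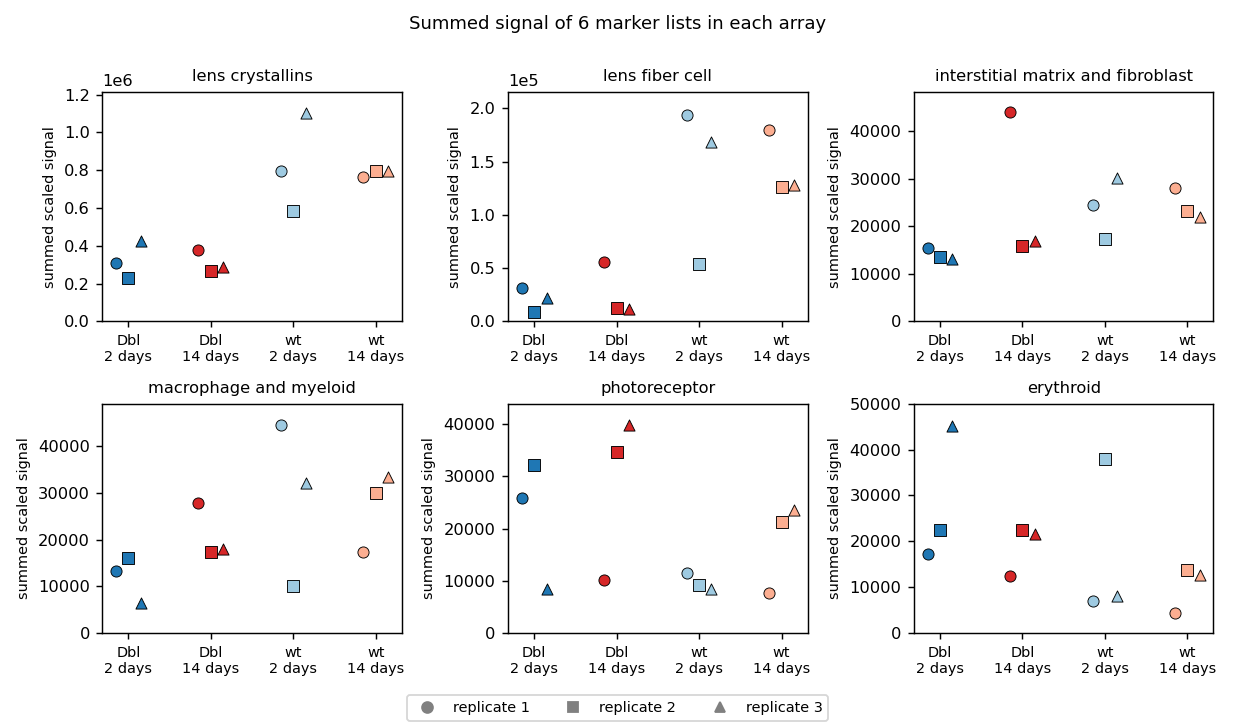
Summed scaled signal of 6 marker lists in each array of 2 and 14 days, Dbl and wt, with the symbol giving the replicate and axes that start at 0. Dbl 14 days replicate 1 is the highest Dbl array for the matrix, fiber cell and macrophage lists and among the lowest for the photoreceptor list.

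Whether the passage from 2 to 14 days differed between Dbl and wt was tested as the difference of the 2 age differences. limma called 0 probe sets (0%) in either direction with all arrays, with 399 (3.21%) at an unadjusted p under 0.05, and 0 (0%) without Dbl 2 days replicate 2, with 348 (2.8%). In wt alone, 0 probe sets (0%) were called and 286 (2.3%) had an unadjusted p under 0.05, while no overlap was found for 333 higher (2.68%) and 680 lower (5.47%). Mmp12 had the smallest p among the 10 genes named for a more positive difference in Dbl. Its wt signals were 137, 267 and 124 at 2 days and 112, 54.8 and 58 at 14 days, so that all 3 wt arrays of 14 days lay below those of 2 days, and the wt difference was -1.22 ± 0.70 SE. The difference between the differences was 3.95 ± 0.99 SE, with an adjusted p of 0.999 in limma. All 3 wt signals of 14 days were under the 40th percentile of 129, so the size of both differences rests on signals that may not be above background. For Hspa14, lower in Dbl, wt signals were 124, 289.6 and 191 and 281, 302 and 316, and the difference between the differences was -2.01 ± 0.51 SE. Cdh1 was lower in wt at 14 days (711, 968 and 786 and 622, 511 and 598) and higher in Dbl, which gave 1.39 ± 0.46 SE. For the cell cycle list the medians were -1.28 in Dbl and -0.91 in wt, and the difference between them was not tested for the list.

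**Figure D4:**
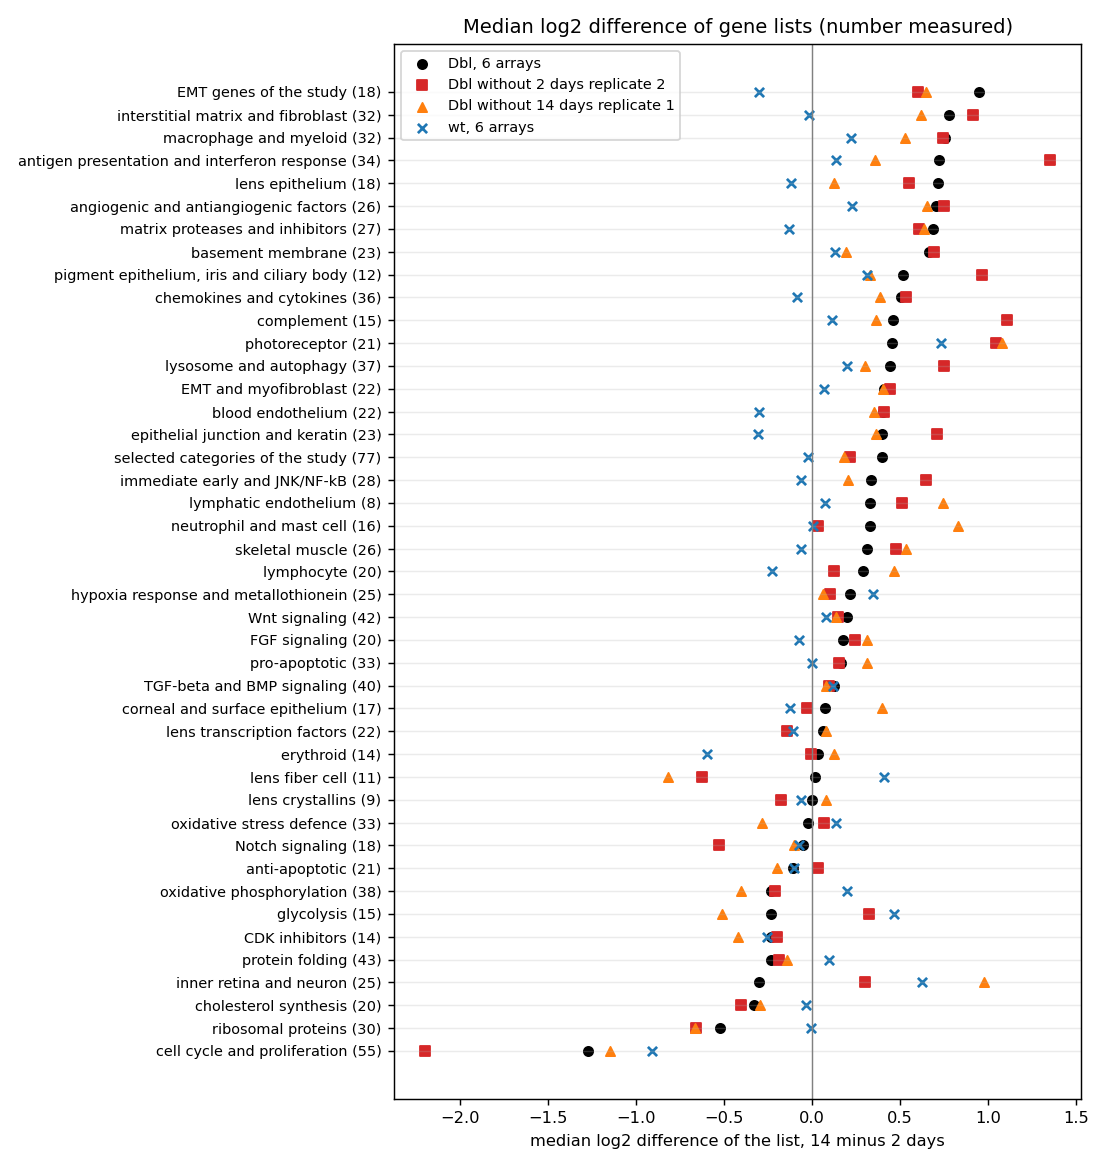
Median log2 difference, 14 minus 2 days, of the gene lists shown (number of measured genes in brackets) in Dbl with all 6 arrays, without Dbl 2 days replicate 2, without Dbl 14 days replicate 1, and in wt. The cell cycle list is the lowest in all 4 readings, and the antigen presentation, matrix and macrophage lists are above 0.5 with all 6 Dbl arrays.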

How the data were processed

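RNA of whole lens pools was hybridised to Affymetrix U74Av2 arrays. The authors deposited linear MAS5 signal intensities, 1 per probe set and array, and in 11 of the 18 arrays these had a 2% trimmed mean near 500, while the other 7 were on lower scales. Why the scales differ is not stated in the sources consulted. All arrays were rescaled so that the 2% trimmed mean was 500. A floor of 1 was applied, which touched 79 values in the 6 Dbl arrays of these ages, before taking log2. Of 12488 probe sets, 66 controls were left out, and 10833 of the others have 1 gene symbol, 396 several and 1193 none. Symbols come from the platform annotation, which can be old. In R 4.3.3, the lmFit and eBayes functions of limma 3.58.1 (trend on) fitted the 6 group means to all 18 arrays, with Benjamini-Hochberg adjustment over 12422 probe sets. The scripts were tested on simulated data with independent noise of capped spread and no outlying arrays. That test checks the code and does not speak to the counts called here. Summaries and plots used matplotlib 3.10.9, scipy 1.17.1, pandas 2.3.3 and numpy 2.4.6 under Python 3.11.15.

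Named genes were the 15 each way with the smallest p among single-symbol probe sets without overlap between the ages and with a mean signal above the median, with all 6 arrays and again without Dbl 2 days replicate 2, up to 4 genes of each list, the 10 each way with the smallest p for the Dbl minus wt difference, and genes the study names. Some list genes were named after their values were seen. A list gene with several probe sets is given by the one with the highest mean signal, unless named by p. The comparison and the lists were chosen with earlier results of these data known. The number of arrays limits precision, and p-values measure the spread between pools. Alternatives covered scaling, the floor, a filter, array weights, the replicate number as a block, the arrays in the fit, the variance model, the ratio rule of the study's methods and arrays left out. Promoters are RefSeq windows of GRCm38.p6.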

Additional observations from a re-analysis of the deposited data

How the results depend on the processing

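Array weights moved the counts most, to 1478 higher and 855 lower with 4424 at an unadjusted p under 0.05. For the Dbl minus wt difference they moved the counts to 18 higher, 12 lower and 2816. With these weights the mean of Dbl 2 days rested mostly on replicate 1, whose weight was 3.55. Raising low signals to a floor at the 40th percentile, limma called 4 higher and 1 lower, 2 higher for the Dbl minus wt difference, and 409 were higher without overlap. Testing only mean signals over 200, which are fewer probe sets, gave 400 at an unadjusted p under 0.05, 153 for the Dbl minus wt difference, 330 higher and 273 lower without overlap, 3 cell cycle genes lower and 1 antigen presentation gene higher. The latter was also 1 under median scaling and under quantile normalization, and ribosomal genes lower without overlap were 4 under median scaling. Leaving out replicate 2 of both Dbl 2 days and Dbl 42 days, 15 were called higher and 4 lower.

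Leaving out 1 array gave 0 to 1 called higher, 0 to 3 lower and 378 to 1320 at an unadjusted p under 0.05, the fewest without Dbl 2 days replicate 1 and the most without Dbl 14 days replicate 1. Without Dbl 2 days replicate 3, Nr2c2ap was called. For the Dbl minus wt difference 0 were called and 288 to 982 had an unadjusted p under 0.05. Counts without overlap, which also include Dbl 2 days replicate 2 and Dbl 14 days replicate 1 left out as a pair, ran from 966 to 4063 higher and 622 to 2075 lower. For lists they ran from 5 to 45 for cell cycle, 10 to 20 for matrix, 8 to 13 for macrophage, 2 to 25 for antigen presentation and 7 to 22 for ribosomal genes. The highest count of each list, like those of all probe sets, was reached with the pair left out. These list ranges are therefore no results about the lists by themselves. Starting without Dbl 2 days replicate 2, the further array left out gave 0 to 1 called higher and 738 to 1407 at an unadjusted p under 0.05.

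Alternatives chosen after seeing the data, all without Dbl 2 days replicate 2, called 4 higher and 4 lower with the floor and 1 higher with the replicate block. Correlations of same-numbered deviations from the group means were 0.50, -0.12 and 0.23. Those of unlike-numbered deviations ran from -0.46 to 0.41. With so few arrays per group, these values cannot decide whether the replicate numbers pair the samples. The replicate block with all arrays called 0 in either direction, with 796 at an unadjusted p under 0.05.

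Values that reversed were Ccl2 (-0.92), Eng (-0.85) and Krt19 (-2.67) with array weights, B3gnt2 (-0.0871) with the floor, Ccl2 (-0.72), Eng (-0.42), Krt19 (-2.29) and Tgfbi (-0.10) without Dbl 14 days replicate 1, and Mt1 (-0.16), Eng (-0.23) and Krt19 (-1.42) without Dbl 2 days replicate 3. Over single arrays left out, these genes ran up to 0.98 for Ccl2, 0.66 for Eng, 1.60 for Krt19, 1.75 for Tgfbi and 2.23 for Mt1. The cause was not tested.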

Other observations

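Some other genes kept the ages apart in all 6 Dbl arrays. Fos, a subunit of the AP-1 transcription factor, had signals of 346, 1382 and 534 at 2 days and 2419, 2252 and 2146 at 14 days, with no overlap and a log2 difference of 1.84 ± 0.72 SE. Egr1, another immediate early transcription factor, had 517, 772 and 496 and 1429.7, 1259 and 845, again without overlap (0.98 ± 0.47 SE). Of 28 immediate early, JNK and NF-kB genes, 4 were higher without overlap (Fos, Fosb, Egr1 and Klf2) and 0 lower, beside 5.72% and 3.32% of all probe sets. The counts were 5 higher and 2 lower when Dbl 14 days replicate 1 was left out, smaller shares than the 22.9% and 9.47% of all probe sets. Idi1, an isomerase of the cholesterol pathway, had 1435, 1383 and 4494 and 405, 1306 and 995, and was lower in every array of 14 days. Notch1, a receptor of cell fate decisions, had 1452, 695 and 1905 and 736, 727 and 94, where Dbl 2 days replicate 2 lay inside the 14 days range.

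Vessel genes had mostly higher signals at 14 days, though none passed the adjusted test in limma with all 6 arrays. Of 22 blood endothelium genes 17 had a log2 difference above 0 (median 0.41, against 0.12 over all probe sets), as had 8 of 8 lymphatic endothelium genes and 24 of 26 angiogenic and antiangiogenic factors. In wt the counts above 0 were 7, 7 and 17, and in Dbl without Dbl 14 days replicate 1 they were 16, 6 and 19. Without that array 5 blood endothelium genes were higher without overlap and 2 lower, beside 22.9% and 9.47% of all probe sets. The lymphatic and angiogenic lists then had 5 and 6 higher and 0 and 4 lower. With all 6 arrays these 2 lists had 2 and 3 higher and 0 lower without overlap, beside 5.72% and 3.32%. The median of all probe sets was itself above 0, so a count above 0 is not a result on its own. Prox1, counted above among the lens transcription factors, is also in the lymphatic list. The summed signal of the blood endothelium list was 3755, 4192 and 3843 at 2 days and 5061, 4519 and 4863 at 14 days, so the ages did not overlap, although 8 to 13 of its genes lay under the 40th percentile in each of these arrays. Ptprb, a phosphatase of endothelial cells, had low signals of 4.36, 16.7 and 9.67 and 75.2, 21.2 and 72.8 with no overlap, and Flt1, a VEGF receptor, had 62.4, 368 and 133 and 203, 449.6 and 569, where the ages overlapped. In the blood endothelium list, 2 genes were higher without overlap (Ptprb and Aplnr) and 2 lower (Cd34 and Procr), beside 5.72% and 3.32% of all probe sets.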
